A study of Homo sapiens with 2 samples.

Results

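The carriers that move organic anions, organic cations and bile salts across the cell membrane were examined in HepG2 cells, a human hepatocellular carcinoma line. Protein-coding genes were chosen by symbol, as the SLC22A, SLCO, SLC10A and SLC47A (SLC47A1 and SLC47A2) families. The 42 genes described here were found by this rule among the 60623 gene entries of the deposited tables: 21 SLC22A genes, 12 SLCO genes, 7 SLC10A genes and 2 SLC47A genes. RNA sequencing was performed in 2 groups with 1 library each. The FFA library came from wild-type HepG2 cells given 1 mM FFA, a BSA-bound mixture of oleic and palmitic acid, for 24 h. The FFA + 9-cis-RA library came from cells given the same FFA and 9-cis-RA at 10 μM, a vitamin A derivative and ligand of the nuclear receptors RXR and RAR. The paper's results describe co-treatment, whereas its methods describe 9-cis-RA given after FFA for 24 h, so the order of the treatments is not settled. Cells without FFA were not analysed here, so the comparison asks how the transporters differed with and without 9-cis-RA in FFA-loaded cells.

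Uptake carriers of the SLC22A, SLCO and SLC10A families bring drugs, steroid conjugates, carnitine and bile salts into cells, and in the liver they sit mostly on the sinusoidal membrane that faces the blood. NTCP (SLC10A1), OATP1B1 (SLCO1B1), OATP1B3 (SLCO1B3) and OAT2 (SLC22A7) are well-known carriers of the hepatocyte's sinusoidal side, whereas MATE1 (SLC47A1) exports organic cations into bile. Hepatoma lines are known to keep some hepatocyte functions and to lose others.

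The libraries held 60821539 counts for FFA and 57669670 counts for FFA + 9-cis-RA. Levels are given as TPM, a transcript level scaled by the exonic length of each gene and by the library's total, and a gene was called expressed at 1 TPM or more in both libraries. A gene with 3 counts or fewer in both libraries was called at or under the detection floor, and the genes in between were called low. The log2 fold change (log2FC) set FFA + 9-cis-RA against FFA on counts divided by DESeq2 size factors, with a pseudocount of 1, which understates the change of genes with few counts. It was taken where a gene reached 10 counts in the libraries together. Its 95% interval (Clopper-Pearson), mostly given in parentheses after the log2FC, covers counting error only. With 1 library per group there was no replicate check, so no p-value is given and each difference is one between these 2 libraries. All 8 hepatocyte markers examined had counts in both libraries, with a summed level of 10229 TPM in FFA and 10042 TPM in FFA + 9-cis-RA. In the leukocyte, stroma, endothelium and small intestine lists, 1 gene each had 0 counts in both, namely PTPRC, DCN, KDR and SI. The other genes of those lists had counts in at least 1 library. LYZ, which leukocytes express, had 5883 and 3332, the apolipoprotein gene APOA4 had 2424 and 2020, and VWF of endothelium had 184 and 118. Fewer were found for PECAM1 (52 and 29), FABP2 (49 and 28), CD14 (9 and 20), CD68 (5 and 15) and CDX2 (3 and 14). How far 2 cultures of the same treatment would differ could not be measured. In bulk RNA, fewer cells with a transcript and less transcript per cell cannot be told apart.

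Of the 42 transporters, 16 were expressed, 7 were low and 19 were at or under the detection floor, 15 of them with 0 counts in both libraries. The expressed share was 38.1%, against 57.8% of the 19916 protein-coding genes. The SLC22A family had 9 expressed genes of 21, the SLCO family 3 of 12, the SLC10A family 3 of 7 and the SLC47A family 1 of 2. Those 16 genes were SLC22A3, SLC22A4, SLC22A5, SLC22A7, SLC22A11, SLC22A15, SLC22A18, SLC22A23, SLC22A31, SLCO2B1, SLCO4A1, SLCO4C1, SLC10A3, SLC10A5, SLC10A7 and SLC47A1. The classical hepatocyte uptake carriers NTCP, OATP1B1 and OATP1B3 were not among them.

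**Figure D1:**
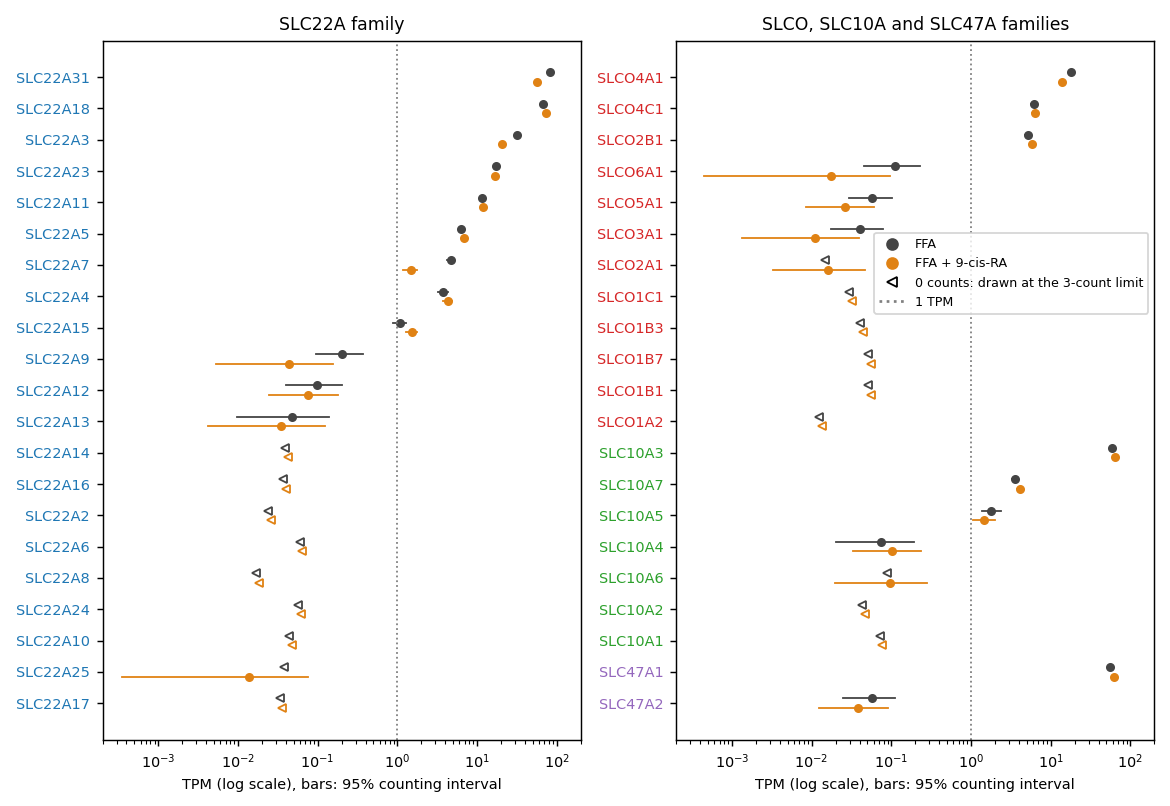
Level of each of the 42 transporters in TPM on a log axis, with the SLC22A family on the left and the SLCO (red), SLC10A (green) and SLC47A (purple) families on the right. Points are the FFA (grey) and FFA + 9-cis-RA (orange) libraries, bars are 95% Poisson counting intervals, open triangles mark libraries with 0 counts at the level that 3 counts would give, and the dotted line marks 1 TPM. The 16 expressed genes lie to the right of the line in both libraries.

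A few genes carried most of the transporter RNA. The 4 highest, SLC22A31, SLC22A18, SLC10A3 and SLC47A1, held 70.2% of the summed level of the 42 genes in FFA and 73.0% in FFA + 9-cis-RA. That summed level was 374.7 TPM in FFA and 353.4 TPM in FFA + 9-cis-RA. The SLC22A family summed to 226.8 TPM in FFA and 194.4 TPM in FFA + 9-cis-RA, which was 60.5% and 55.0% of the whole. The SLC10A family followed with 63.6 and 70.7 TPM, of which SLC10A3 alone gave 91.4% and 91.8%. The SLC47A family had 55.1 and 62.4 TPM, and SLC47A1 gave 99.9% of it in each library. The SLCO family was the lowest, with 29.3 and 25.9 TPM, although it is the family with the most members after SLC22A. In counts it was close to SLC10A in FFA (3277 against 3301) and lower in FFA + 9-cis-RA (2835 against 3406). The gap in TPM between these families in FFA thus rests on the exonic lengths. SLCO4A1 gave 60.6% of the SLCO level in FFA and 53.2% in FFA + 9-cis-RA.

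As a log2 ratio of summed TPM, FFA + 9-cis-RA against FFA, the families stood at -0.22 for SLC22A, -0.18 for SLCO, 0.15 for SLC10A and 0.18 for SLC47A. The TPM scale places the FFA + 9-cis-RA library 0.090 higher on the log2 scale than the size factors do, and with size factors the same ratios were -0.31, -0.27, 0.063 and 0.090. The ratio depended on the highest gene in each family. Without SLC22A31 the SLC22A ratio of summed TPM was -0.071, and without SLCO4A1 the SLCO ratio was 0.070. The SLCO value is smaller than the 0.090 that the TPM scale adds, so with size factors it would not lie above 0. Without SLC47A1 only SLC47A2 remained, at -0.56 from 8 and 5 counts. Without SLC10A3 the SLC10A ratio was 0.090, the size of the shift between the scales, so no direction can be read from it.

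**Figure D2:**
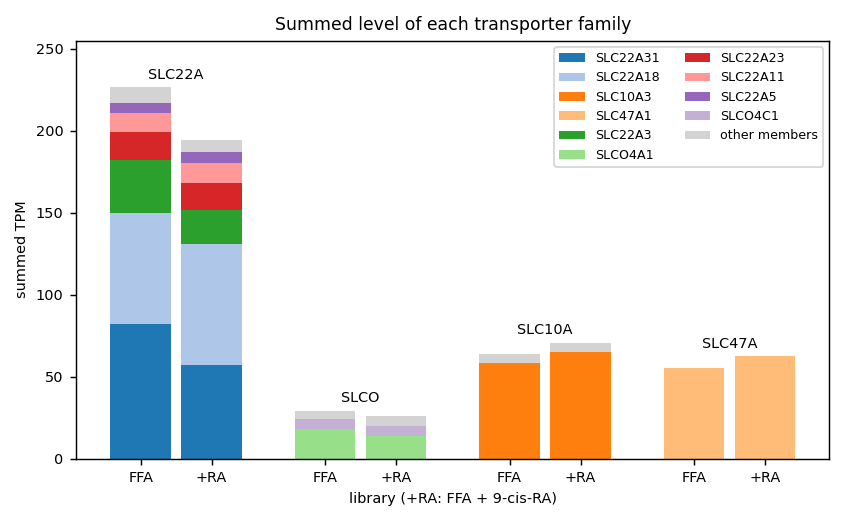
Summed level of each family in TPM (linear axis from 0), with the FFA library on the left and the FFA + 9-cis-RA library on the right of each pair. The stacked segments are the 10 members with the highest level in FFA, each with its own color, and grey holds the other members; SLC10A3 and SLC47A1 fill nearly the whole of their families' bars.

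Ranked by TPM in FFA, the expressed genes ran from SLC22A31 at 82.3 TPM to SLC22A15 at 1.07 TPM. SLC22A31 and SLC22A18 stood clear of their neighbors by their counting intervals, whereas SLC10A3 at 58.1 TPM and SLC47A1 at 55.0 TPM overlapped. These intervals do not cover error in the exonic length by which TPM divides, so the order between genes is conditional on it. In FFA, SLC22A18 had more counts than SLC22A31, 7424 against 4570, with exonic lengths of 5227 and 2646 bases. SLCO4A1 and SLC22A23 also overlapped, as did SLC22A5 and SLCO4C1, and SLCO2B1, SLC22A7, SLC22A4 and SLC10A7 overlapped one after another. In FFA + 9-cis-RA, SLC22A18 was the highest at 74.0 TPM, followed by SLC10A3 at 64.9, SLC47A1 at 62.4 and SLC22A31 at 56.8 TPM. SLC10A3 and SLC47A1 overlapped again, and SLC22A31 lay below them. At the low end SLC22A15, SLC22A7 and SLC10A5 overlapped, between 1.46 and 1.51 TPM.

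Across both libraries, 21 of the 42 transporters had enough counts to be compared. Of the other 21, 15 had no count in either library and 6 had a few. The counting interval lay above 0 for 2 transporters (9.52%), against 22.5% of the 20431 genes compared, and below 0 for 6 (28.6%), against 25.7% of all genes. It included 0 for 13. The log2FC was above 1 for 0 of the 21, against 3.37% of all genes, and below -1 for 4 (19.0%), against 4.9% of all genes. Of these 4 transporters, 3 had fewer than 50 counts over both libraries, so the share below -1 rests on sparsely counted genes. The median log2FC of the 21 transporters was -0.14, against -0.020 for all compared genes. By family, the median was 0.069 for 3 SLC10A genes, -0.14 for 11 SLC22A genes, -0.24 for 2 SLC47A genes and -0.45 for 5 SLCO genes. These medians rest on genes with few counts. Where the 2 libraries held 50 counts or more, the median of the remaining 16 transporters was 0.0070, and by family it was 0.069 for SLC10A, -0.013 for SLC22A, 0.091 for SLC47A (SLC47A1 alone), on the other side of 0, and -0.072 for SLCO.

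**Figure D3:**
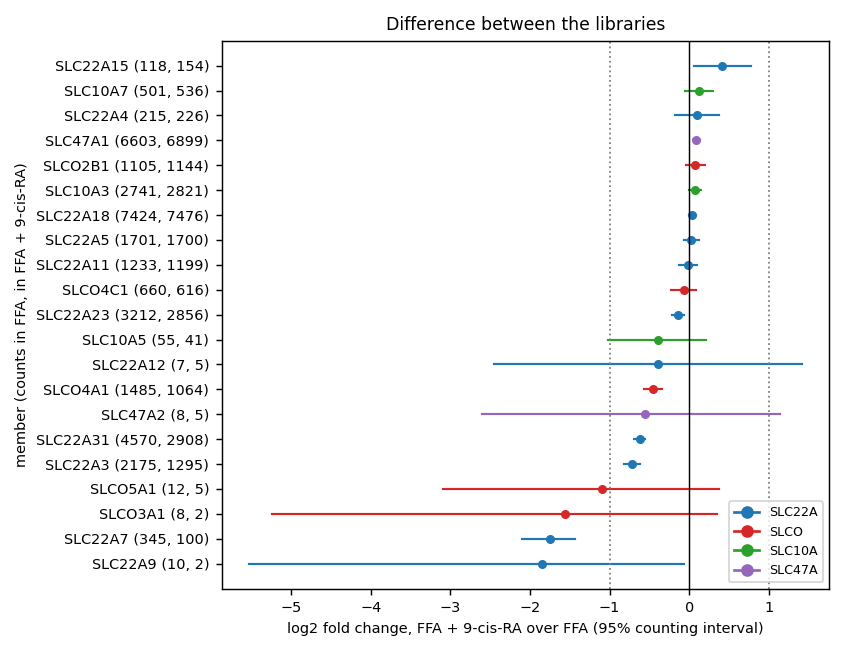
Log2FC of the 21 compared transporters, FFA + 9-cis-RA over FFA, with 95% counting intervals, colored by family and ordered from highest to lowest. The counts in FFA and in FFA + 9-cis-RA stand beside each name, the dotted lines mark -1 and 1, and the wide bars belong to genes with few counts, such as SLC22A9 with 10 and 2.

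NTCP, OATP1B1 and OATP1B3 were not detected at this depth. SLC10A1 (ENSG00000100652), which encodes NTCP, the sodium-coupled bile salt carrier and hepatitis B virus receptor, had 0 counts in both libraries. At this depth 3 counts would have been 0.0714 TPM in FFA and 0.0775 TPM in FFA + 9-cis-RA, which is the level that a count of 0 allows. SLCO1B1 and SLCO1B3, the liver OATPs that take up bilirubin, statins and bile salts, also had 0 counts in both libraries. The limits that 3 counts would give were 0.0513 and 0.0404 TPM in FFA. For both genes the limit covers only part of the transcript, because reads falling on more than 1 gene were not counted. The read-through gene SLCO1B3-SLCO1B7 shares 54.5% of the exonic bases of SLCO1B3 on the same strand, and another entry shares 11.1% of those of SLCO1B1. SLCO1B3-SLCO1B7 itself had 0 counts in both libraries.

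The promoters of these 3 undetected carriers are shown because these are the defining uptake carriers of hepatocytes. The letters come from RefSeq on GRCh38.p14, in the 250 bases before the annotated start and without bases that lie in an exon of the counted gene models. The window was searched on both strands for AGGTCA, the half-site of many nuclear receptors including RXR partners. The capitals mark matches, and a match on the other strand appears here as the reverse complement.
SLC10A1 promoter, chr14:69797242-69797491, minus strand: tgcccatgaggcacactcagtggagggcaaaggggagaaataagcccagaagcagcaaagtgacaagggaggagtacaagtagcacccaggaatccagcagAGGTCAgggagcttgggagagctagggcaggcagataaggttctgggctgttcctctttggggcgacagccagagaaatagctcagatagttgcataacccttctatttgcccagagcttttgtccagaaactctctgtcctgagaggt
SLCO1B1 promoter, chr12:21130944-21131122, plus strand: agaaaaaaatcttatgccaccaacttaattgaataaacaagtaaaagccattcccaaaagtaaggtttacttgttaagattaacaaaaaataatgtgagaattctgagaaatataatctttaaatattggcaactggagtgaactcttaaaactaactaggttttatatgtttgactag
SLCO1B3 promoter, chr12:20810455-20810701, plus strand: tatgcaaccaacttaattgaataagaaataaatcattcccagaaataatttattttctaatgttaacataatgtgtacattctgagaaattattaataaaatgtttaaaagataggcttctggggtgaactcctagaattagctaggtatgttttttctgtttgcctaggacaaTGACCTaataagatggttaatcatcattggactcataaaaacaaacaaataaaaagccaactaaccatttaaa

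The AGGTCA half-site was found in 12.1% of 35116 RefSeq promoter windows of the same length. Among the 33 windows available for 27 of the transporters, 5 held it. SLC10A1 had AGGTCA from 149 to 144 bases before its start. SLCO1B3 had it on the other strand, as TGACCT from 76 to 71 bases before its start, and the window of SLCO1B1 held no match. These matches describe the letters only.

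The other bile salt and steroid carriers were at or under the floor as well. SLC10A2, the ileal bile salt carrier ASBT, and SLCO1A2, an OATP of brain and other tissues, had 0 counts in both libraries. SLC10A6, a carrier of sulfated steroids, had 0 counts in FFA and 3 in FFA + 9-cis-RA, too few for a fold change.

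The expressed SLC10A genes were instead the members with no established bile salt transport. SLC10A3, an orphan gene of the family on the X chromosome from 154487306 to 154490690 (GRCh38), had 2741 counts in FFA and 2821 in FFA + 9-cis-RA. Its log2FC was 0.069 (-0.0072 to 0.15), an interval that includes 0, but it lay above 0 with TMM, with total counts and with the length trend removed. SLC10A7, a ubiquitous member linked to calcium handling and skeletal development, had 501 and 536 counts, giving a log2FC of 0.12 (-0.053 to 0.30). SLC10A5, an orphan member, had 55 and 41 counts, which were 1.80 and 1.46 TPM. Its log2FC was -0.39 with an interval from -1.02 to 0.21, which includes 0. SLC10A4, a vesicular protein of neurons, had 4 and 5 counts and was low. None of the 3 compared SLC10A genes had an interval that excluded 0.

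In the SLCO family the expressed genes were SLCO4A1, SLCO4C1 and SLCO2B1. SLCO4A1 (ENSG00000101187), which carries thyroid hormones and is encoded on chromosome 20 (start 62642503, end 62685785), had 1485 counts in FFA and 1064 in FFA + 9-cis-RA. It was lower in the FFA + 9-cis-RA library, with a log2FC of -0.45 (-0.57 to -0.34), and 3289 of the 20431 compared genes had a lower value. Another gene covers 8.67% of its exonic bases on the opposite strand, but the counting used strand, and the antisense genes SLCO4A1-AS1 and SLCO4A1-AS2 had 8 and 4 counts and 23 and 26 counts. SLCO4C1, a carrier of the kidney's basolateral side, had 660 and 616 counts, and SLCO2B1, an OATP of liver and intestine that carries estrone sulfate and statins, had 1105 and 1144 counts. Their log2FCs were -0.072 (-0.23 to 0.089) and 0.078 (-0.043 to 0.20), and both intervals include 0, although that of SLCO2B1 lay above 0 with total counts. SLCO2B1 was thus the OATP of the liver's sinusoidal membrane with counts in these cells, at 5.12 and 5.76 TPM.

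The remaining SLCO genes were sparse. SLCO5A1 had 12 and 5 counts and SLCO3A1, a carrier of prostaglandins, had 8 and 2. Both were past -1, at -1.09 (-3.09 to 0.37) and -1.56 (-5.25 to 0.35), but both intervals include 0. SLCO6A1, a testis gene, had 7 and 1 counts, and SLCO2A1, the prostaglandin carrier, had 0 and 3. SLCO1C1, the thyroxine carrier of the brain's vessels, and SLCO1B7 had 0 counts in both libraries, and 60.4% of the exonic bases of SLCO1B7 are shared with overlapping entries on the same strand.

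Of the organic cation transporters, SLC22A3 (ENSG00000146477) was expressed. It encodes OCT3, which carries monoamines and metformin, and is found on chromosome 6 between 160348378 and 160452577. SLC22A3 had 2175 counts in FFA and 1295 in FFA + 9-cis-RA, which were 32.0 and 20.7 TPM. It was lower in the FFA + 9-cis-RA library by a log2FC of -0.72 (-0.82 to -0.62). SLC22A2, the renal carrier OCT2 in the same gene cluster, had 0 counts in both libraries.

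Among the export counterparts of the SLC47A family, MATE1 was expressed in these cells. SLC47A1 (ENSG00000142494), on chromosome 17 from 19495385 to 19579034, had 6603 counts in FFA and 6899 in FFA + 9-cis-RA. It was slightly higher in the FFA + 9-cis-RA library, with a log2FC of 0.091 (0.042 to 0.14). SLC47A2, the renal MATE2 gene beside it, had 8 and 5 counts, giving a log2FC of -0.56 (-2.61 to 1.14). SLC47A1 has related pseudogenes, and reads that map to several places were not counted. SLC47A1P1 had 12 counts in each library, and SLC47A1P2 had 16 and 19.

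The carnitine and zwitterion carriers showed small differences. SLC22A5 encodes OCTN2, the high-affinity carnitine carrier that supplies fatty acid oxidation, and had 1701 counts in FFA and 1700 in FFA + 9-cis-RA, giving a log2FC of 0.027 (-0.071 to 0.12). SLC22A4, its neighbor on chromosome 5 and a carrier of ergothioneine, had 215 and 226, giving a log2FC of 0.099 (-0.18 to 0.38). For neither was a difference detectable at this depth, although both were expressed in the FFA-loaded cells. SLC22A15, a carrier of zwitterions, had 118 and 154 counts, giving a log2FC of 0.41 (0.056 to 0.77). Its interval lay above 0, and its level was near the 1 TPM limit, at 1.07 and 1.51 TPM. SLC22A16, a carnitine carrier of testis, had 0 counts in both libraries.

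Among the organic anion transporters, SLC22A7 had the lowest log2FC of the 16 expressed genes. SLC22A7 (ENSG00000137204), which encodes OAT2, a hepatocyte carrier of cGMP, creatinine and other small anions, is found on chromosome 6 between 43295694 and 43305538. The gene had 345 counts in FFA and 100 in FFA + 9-cis-RA, which were 4.66 and 1.47 TPM. The log2FC was -1.75 (-2.09 to -1.43), and 245 of the 20431 compared genes had a lower value. SLC22A7 was the only transporter whose whole interval lay past -1. Its level exceeded that of 50.9% of the protein-coding genes in FFA and of 43.2% in FFA + 9-cis-RA.

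The SLC22A7 promoter is shown because of this difference, as the 168 bases before the RefSeq start that hold no annotated exon, with the capitals marking the reverse complement of AGGTCA.
SLC22A7 promoter, chr6:43298092-43298259, plus strand: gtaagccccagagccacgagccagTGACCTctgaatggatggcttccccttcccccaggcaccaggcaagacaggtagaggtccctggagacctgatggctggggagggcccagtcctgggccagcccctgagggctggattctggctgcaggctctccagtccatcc
The match lies from 144 to 139 bases before the start, which is inside the counted gene model, whose first exon begins further upstream. This promoter and that of SLC10A1 were chosen for printing after the values were seen, and as 12.1% of all promoter windows hold AGGTCA the match is not rare.

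SLC22A11, which encodes OAT4, a urate and estrone sulfate carrier best known from kidney and placenta, was the highest of the organic anion transporters. It had 1233 counts in FFA and 1199 in FFA + 9-cis-RA, and its levels of 11.4 and 12.0 TPM lay above those of SLC22A7 in both libraries. The log2FC was -0.013 (-0.13 to 0.10), so a difference was not detectable. SLC22A9, which encodes the liver carrier OAT7, had 10 and 2 counts, giving a log2FC of -1.85 (-5.52 to -0.064). The interval of SLC22A9 only just excluded 0. SLC22A12, the renal urate carrier URAT1, had 7 and 5 counts, giving a log2FC of -0.39 (-2.46 to 1.41). SLC22A13 had 3 and 2 counts and SLC22A25 had 0 and 1. The renal carriers OAT1 (SLC22A6) and OAT3 (SLC22A8), together with SLC22A10 and SLC22A24, had 0 counts in both libraries. The kidney markers examined summed to 5.53 TPM in FFA and 6.85 TPM in FFA + 9-cis-RA, mostly from GGT1, which liver cells also express. SLC5A2 of the same list had 158 counts in FFA and 120 in FFA + 9-cis-RA, which were 1.68 and 1.39 TPM.

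An orphan SLC22A gene had the highest level in each library, SLC22A31 in FFA and SLC22A18 in FFA + 9-cis-RA. SLC22A31 (ENSG00000259803), on chromosome 16 from 89195761 to 89201651, had 4570 counts in FFA and 2908 in FFA + 9-cis-RA, which were 82.3 and 56.8 TPM. Its log2FC was -0.62 (-0.69 to -0.56), so this transporter, the highest in FFA, was lower in the FFA + 9-cis-RA library. Its promoter is shown as the one available among the highest genes of each family.
SLC22A31 promoter, chr16:89201679-89201928, minus strand: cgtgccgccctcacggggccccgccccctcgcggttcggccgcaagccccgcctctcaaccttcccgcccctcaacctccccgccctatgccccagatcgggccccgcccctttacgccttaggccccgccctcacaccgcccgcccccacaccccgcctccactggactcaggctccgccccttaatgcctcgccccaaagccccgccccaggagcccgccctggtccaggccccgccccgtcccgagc
The motif was not found in these 250 bases, which says only that these letters are not in the window.

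SLC22A18, an orphan gene of an imprinted region on chromosome 11 from 2899721 to 2925246, had 7424 counts in FFA and 7476 in FFA + 9-cis-RA. With the smallest counting error of the family, its log2FC was 0.038 (-0.0088 to 0.084), and the interval lay above 0 with TMM and with total counts. Its level was 67.7 and 74.0 TPM, above SLC22A31 in the FFA + 9-cis-RA library. The antisense gene SLC22A18AS had 277 and 228 counts, giving a log2FC of -0.25 (-0.51 to 0.0049). SLC22A23, an orphan gene on chromosome 6 from 3268962 to 3457022, had 3212 and 2856 counts. It was slightly lower in the FFA + 9-cis-RA library, by -0.14 (-0.22 to -0.069). SLC22A14, a testis gene, and SLC22A17, a lipocalin receptor gene, had 0 counts in both libraries.

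Across the 16 expressed transporters, the interval lay below 0 for SLC22A3, SLC22A7, SLC22A23, SLC22A31 and SLCO4A1, above 0 for SLC22A15 and SLC47A1, and included 0 for 9. All 5 lower genes kept an interval below 0 under every scaling tried. Among the 13734 compared protein-coding genes, the interval lay below 0 for 4201 and above 0 for 4052. At the same difference, a gene with more counts excludes 0 more readily. The markers of hepatocytes and hepatoma cells also differed between the libraries: the hepatocyte list had the interval above 0 for 4 of 8 genes and below 0 for 4, against 22.5% and 25.7% of all genes, from ALB at -0.70 (-0.71 to -0.69) to FGB at 0.84 (0.75 to 0.93), and AFP was at -0.99 from 273242 and 134862 counts. Their part in the transporter differences was not tested.

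**Figure D4:**
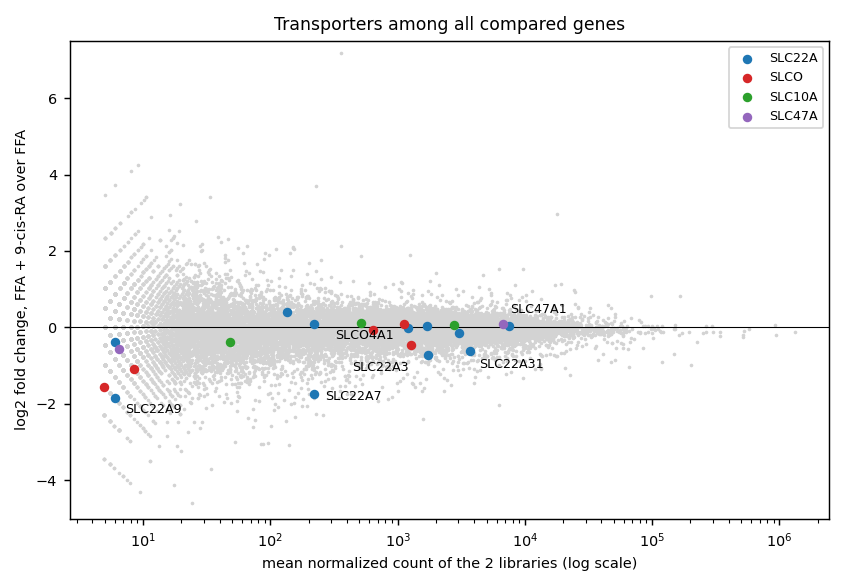
Log2FC (FFA + 9-cis-RA over FFA) against the mean normalized count on a log axis for all 20431 compared genes (grey), with the 21 compared transporters colored by family. SLC22A7, SLC22A3, SLC22A31 and SLCO4A1 lie below 0 at counts where the grey cloud is narrow, whereas SLC22A9 lies at low counts where it is wide.

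Many transporter genes lie side by side, and neighbors often differed in level. Genes of these families within 500 kb of each other formed 8 clusters with 23 genes, and 5 clusters held an expressed gene. The 6 genes of the SLC22A cluster on chromosome 11 from 62936385 to 63410294 (SLC22A6, SLC22A8, SLC22A24, SLC22A10, SLC22A25 and SLC22A9) were all below 1 TPM, as were the 5 SLCO genes on chromosome 12 from 20695355 to 21419594, which had 0 counts throughout. SLC22A4 and SLC22A5 were both expressed. In the other 4 clusters with an expressed gene, 1 gene was expressed and its neighbors were not: SLC22A11 beside SLC22A12, SLC47A1 beside SLC47A2, SLCO4C1 beside SLCO6A1, and SLC22A3 beside SLC22A2. Of the 23 clustered genes 6 were expressed, against 10 of the 19 genes outside clusters.

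The genes that act with these carriers were examined from a list, of which 26 are described, namely 12 efflux carriers, 2 scaffold proteins and 12 transcription regulators. Of the 25 that could be compared, the interval lay above 0 for 10 and below 0 for 10, against 22.5% and 25.7% of all compared genes. The log2FC was above 1 for 2 and below -1 for 0, against 3.37% and 4.9% of all genes, and the median log2FC was -0.012. ABCC2, which encodes MRP2, the canalicular exporter of conjugates, had 336.2 and 269.6 TPM, a level above that of each of the 42 transporters, and its log2FC was -0.41 (-0.43 to -0.39). ABCB11, the bile salt export pump, had 1 and 2 counts, so like NTCP it was at or under the floor. SLC51B, a subunit of the basolateral bile salt exporter, had 542 and 1965 counts, giving a log2FC of 1.88 (1.75 to 2.03), and its partner subunit SLC51A was at 0.49 (0.32 to 0.66) from 482 and 665 counts. SLC51A and SLC51B were thus higher in the FFA + 9-cis-RA library while the bile salt uptake carriers SLC10A1, SLC10A2, SLCO1A2, SLCO1B1 and SLCO1B3 had 0 counts in both libraries.

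Regulators of bile salt transport differed in both directions. Of the 12 listed, the interval lay above 0 for 4, below 0 for 6 and included 0 for 2, against 22.5% above and 25.7% below of all compared genes. Only some of them are named here. NR1H4, which encodes the bile salt receptor FXR, had 2305 and 1260 counts, giving a log2FC of -0.84 (-0.94 to -0.74). NR0B2, which encodes SHP, a repressor of bile salt synthesis and an FXR target, had 5085 and 9244 counts, giving a log2FC of 0.89 (0.84 to 0.94). RXRA, which encodes a receptor of 9-cis-RA, was at -0.44 (-0.49 to -0.40) and FOXA3 at -0.80 (-0.91 to -0.68). The retinoic acid receptor gene RARB, with 6 and 46 counts, was at 2.77 (1.74 to 4.48). RARA, another such gene with 1669 and 1886 counts, was at 0.20 (0.11 to 0.30). HNF4A was at -0.14 (-0.17 to -0.12). The scaffold PDZK1, which holds organic anion and carnitine carriers at the membrane, was at -0.37 (-0.48 to -0.27) from 1786 and 1353 counts.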

How the data were processed

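Poly(A)+ RNA of HepG2 cells was sequenced as stranded libraries, 1 per group. The authors deposited raw counts of fragments per gene, made with featureCounts version 2.0.1 on the reverse strand (strand setting 2) of GRCh38, according to the file headers. Read pairs that mapped to several places or overlapped several genes were left out, which lowers the counts of overlapping and near-identical genes. The aligner and the annotation release are not given in the sources used here, and replicates were not pooled. The submitters' processing notes also name DESeq2.

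Entries were matched by identifier to GENCODE release 29 for gene type and to symbols (42005 of 60623 had one), and 19916 were protein-coding. Size factors came from DESeq2 1.42.0, with TMM of edgeR 4.0.16 (R 4.3.3) and total counts as alternatives. Further alternatives were pseudocounts of 0.1 and 5, count minimums of 50 and 1, TPM limits of 0.5 and 2, the whole interval past 1, and removal of a trend on gene length (loess, span 0.3). TPM used the featureCounts length. Levels, sums and intervals were computed with Python 3.11.15, scipy 1.17.1, statsmodels 0.14.6, pandas 2.3.3 and numpy 2.4.6, tested on simulated data, and plotted with matplotlib 3.10.9.

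Every transporter with 10 counts or more in total was named with its counts, the rest in groups, and promoters were to be shown for the highest gene of each family and for close paralogs. Of the genes the rule and the partner list hold, 1 transporter and 1 regulator are not reported here and are in none of the counts or sums of these groups. The transporters and gene lists were chosen with earlier results of these data known. Promoters come from RefSeq, matched by symbol. The marker lists of fetal liver, small intestine, stroma, endothelium and leukocytes summed to 4079 and 2186, 79.6 and 71.9, 0.119 and 0.103, 1.29 and 0.866, and 159.3 and 98.7 TPM in FFA and FFA + 9-cis-RA. The leukocyte sum was nearly all LYZ, with 5883 and 3332 counts. The fetal liver sum was nearly all AFP, at 4067 and 2178 TPM, and DLK1 of that list had 1 and 0 counts. The intervals and detection floors take in counting error alone. Protein measurements were not analysed here.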

Additional observations from a re-analysis of the deposited data

How the results depend on the processing

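No paired analysis was possible because each group had 1 library. The number of transporters with an interval above 0 was 2, and became 4 with TMM (SLC10A3 and SLC22A18 added) and 5 with total counts (SLCO2B1 added as well) and 3 with the length trend removed (SLC10A3 added), whereas the 6 below 0 were the same genes under each scaling. Below -1 were 4 of the 21 transporters, against 1002 of 20431 genes. With a pseudocount of 5 this became 2, against 594 genes. With at least 50 counts 1 of 16 transporters was below -1, against 361 of 15917 genes. At that minimum the family medians were 0.069 for SLC10A, -0.013 for SLC22A, 0.091 for SLC47A and -0.072 for SLCO. With at least 1 count, 3 of 27 transporters were above 1, against 3771 of 29735 genes. Requiring the whole interval past -1 left 1, SLC22A7. For the summed levels, the SLC22A log2 ratio was -0.15 on counts scaled by library total and -0.071 without its highest gene. In TPM and without the highest gene, SLCO was at 0.070, SLC10A at 0.090 and SLC47A at -0.56. The TPM scale itself adds 0.090, so no direction can be read from the SLCO and SLC10A values. The SLC47A value lay on the other side of 0 and came from SLC47A2 alone, with 8 and 5 counts. With DESeq2 size factors, added after seeing the data, the ratios were -0.31 for SLC22A, -0.27 for SLCO, 0.063 for SLC10A and 0.090 for SLC47A. The number of expressed genes was 16 at 0.5 TPM and over protein-coding genes, and 13 at 2 TPM. Of 142 values of single transporters under an alternative, 140 moved by less than their counting interval and 2 moved by more, SLC22A18 to 0.087 and SLC47A1 to 0.14 with total counts, and 0 changed sign where called. Depth limits the 21 transporters not compared, and the spread between cultures could not be measured.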
